A study of Saccharomyces cerevisiae with 9 samples.

Results

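The large (60S) subunit of the yeast ribosome is built from proteins that are mostly encoded by duplicated genes. The 60 loci described here form 30 such pairs, an A and a B copy of each of *RPL1*, *RPL2*, *RPL4*, *RPL6* to *RPL9*, *RPL11* to *RPL24*, *RPL26*, *RPL27*, *RPL31*, *RPL33* to *RPL37* and *RPL40*. They were taken by locus name from a transcript table of 6952 entries, and all 60 had a spliced mRNA entry. RNA-Seq libraries of 3 *Saccharomyces cerevisiae* strains of the W303 background were compared, with 3 libraries of each strain and 9 in all. WT carries both *PAB1* and *PBP1*. In *pbp1Δ* cells the *PBP1* gene, which encodes a binding partner of Pab1, was replaced with *URA3*. In *pab1Δpbp1Δ* cells the coding sequence of *PAB1*, which encodes the cytoplasmic poly(A)-binding protein, was replaced with kanMX on top of the *PBP1* deletion, because loss of Pbp1 keeps cells without Pab1 alive. The effect of Pab1 can therefore be read only within the *pbp1Δ* background. All cultures were grown in rich glucose medium (YEPD). The replicates of the mutant strains are separate isolates by the study's methods. Those of WT are called technical replicates there and biological replicates elsewhere in the study, so the spread behind p-values in comparisons with WT may be partly technical.

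Most duplicated ribosomal protein genes of yeast are leftovers of an ancient whole-genome duplication, and the copies of a pair encode proteins that are identical or differ at a few positions. Ribosomal protein mRNAs are among the most abundant messages of growing cells, many of their genes hold an intron, and their transcription is driven largely by the factor Rap1 together with Fhl1, Ifh1 and Sfp1. Cells need similar amounts of each ribosomal protein, so the sum over the copies of a pair and the balance between them are separate quantities. Some copies are also held in check by their own product, as is known for the *RPL22B* pre-mRNA, whose splicing is inhibited by Rpl22.

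Total expected counts lay between 73062345 and 100361368 per library, and the lowest count of any of the 60 mRNAs in any library was 1147 (*RPL22B* in *pab1Δpbp1Δ* replicate 2). *PAB1* had 50, 26 and 22 expected counts in the *pab1Δpbp1Δ* libraries, and *PBP1* was likewise reduced in both mutant strains (log2 fold change of -8.35 in *pbp1Δ* against WT), as the labels require. Levels of a gene across libraries are given as CPM, counts scaled to a common library size after TMM normalization, and levels of different genes are compared only as FPKM, which takes account of transcript length. No spike-in was mentioned by the study, so values are relative to the RNA pool of each library, and fewer transcripts of a gene cannot be told apart from more RNA of other genes. Among the *pab1Δpbp1Δ* libraries, replicate 1 stood apart. It was the highest of the 3 for 60 of the 60 mRNAs, with a median of 1.46 times the mean of replicates 2 and 3. The *pab1Δpbp1Δ* strain has a longer doubling time by the study's methods, and the loss of Pab1 and slower growth cannot be told apart in these libraries.

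The 30 pairs differed far less in their summed level than the 60 copies did individually. In WT, the mean FPKM of a pair, both copies added, ran from 1895 for *RPL22* to 7494 for *RPL40*, which encodes a ubiquitin fusion, a 3.96-fold range with a median of 3968. The individual copies ran from 47.1 FPKM for *RPL15B* to 5603 FPKM for *RPL8B*. The A copy was the larger one in 17 pairs and the B copy in 13, and the larger copy had a median of 1.58 times the FPKM of the smaller.

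The most uneven pair in WT was *RPL15*, a protein of the subunit's body that is bound deep within its rRNA. *RPL15A* (YLR029C) made up 98.8%, 98.8% and 98.9% of the pair's FPKM in the 3 WT libraries, 86.0 times the level of *RPL15B* (YMR121C). *RPL8* followed, with 8.10%, 8.43% and 8.02% for the A copy (YHL033C) and thus 11.2 times more of *RPL8B* (YLL045C), and then *RPL22*, with 88.7%, 88.9% and 87.5% for *RPL22A* (YLR061W). In these pairs all 3 libraries lay within 2 percentage points of each other. The most even pairs were *RPL1*, *RPL20* and *RPL35*, whose larger copy had 1.03, 1.07 and 1.08 times the FPKM of the smaller. In all, 12 pairs had an A share between 40% and 60%, and 7 pairs had over 80% in a single copy.

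From *pbp1Δ* to *pab1Δpbp1Δ*, which both lack Pbp1 and differ in Pab1 and in doubling time, the mRNAs of the 60S pairs fell broadly. Of the 60, 42 fell and 0 rose at an adjusted p-value under 0.01 in edgeR's quasi-likelihood test, while 16.7% of all 6573 entries tested were lower and 18% were higher. At an unadjusted p under 0.05, 57 were lower and 0 higher, while 4002 of all 6573 entries had such a p in either direction. DESeq2 called 56 lower and 0 higher, and its share over all entries is not given here. The other 18 did not pass the threshold, and 59 of 60 log2 fold changes were negative. The median log2 fold change of the 60 was -0.90 (range -2.87 to 0.05), whereas that of all entries was 0.03. In 57 of the 60, all 3 *pab1Δpbp1Δ* libraries lay below all 3 *pbp1Δ* libraries, a pattern seen in 32% of all entries tested. The count of calls depended on which library was left out. It was 59 without *pab1Δpbp1Δ* replicate 1, but 26 and 15 without replicates 2 and 3 of that strain and 13, 15 and 17 without *pbp1Δ* replicates 1, 2 and 3. With each of these 6 libraries left out, the median log2 fold change lay between -1.08 and -0.78, and that of all entries between 0.01 and 0.04. Leaving out a library alters the test for all entries, and the share of all entries then called is not given here.

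**Figure D1:**
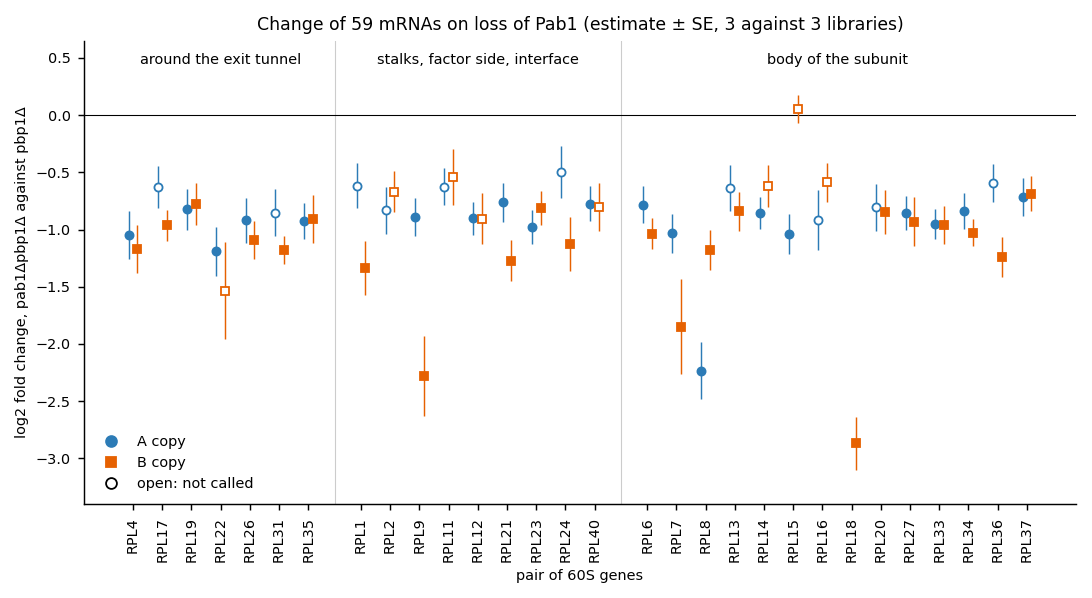
Log2 fold change of 59 of the 60 mRNAs in *pab1Δpbp1Δ* against *pbp1Δ* (vertical axis), with the A copy (circle) and B copy (square) of each pair side by side and pairs grouped by their place in the subunit. Bars are standard errors from edgeR on 3 against 3 libraries, and open symbols did not pass an adjusted p of 0.01. Nearly all symbols lie below 0, *RPL18B* is the lowest, and *RPL9B*, *RPL8A* and *RPL7B* lie far below their partners.

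As a share of all expected counts, the 60 mRNAs together took up 6.54%, 5.71% and 6.13% in *pbp1Δ* and 4.95%, 3.49% and 3.94% in *pab1Δpbp1Δ*. The groups did not overlap, and the means were 6.13% ± 0.412 and 4.13% ± 0.745 (SD, n = 3), a ratio of 0.674 with an exact permutation p = 0.1 (two-sided), the smallest that 3 against 3 libraries can give. WT libraries held 6.36%, 6.12% and 5.92%, a range that overlapped with that of *pbp1Δ*. The same ratio was 0.535 from TMM-scaled values and 0.700 from the share of FPKM, so the size of the summed change depended on the scale, while the direction did not.

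By place in the subunit, the falls were spread over all 3 groups. Along the polypeptide exit tunnel and around its exit (*RPL4*, *RPL17*, *RPL19*, *RPL22*, *RPL26*, *RPL31* and *RPL35*), 11 of 14 mRNAs fell, with a median log2 fold change of -0.94. In this group *RPL17A*, *RPL22B* and *RPL31A* did not pass. Among proteins of the stalks, the central protuberance and the side that faces the 40S subunit and translation factors (*RPL1*, *RPL2*, *RPL9*, *RPL11*, *RPL12*, *RPL21*, *RPL23*, *RPL24* and *RPL40*), 10 of 18 fell, with a median of -0.82. The 8 that did not pass were *RPL1A*, *RPL2A*, *RPL2B*, *RPL11A*, *RPL11B*, *RPL12B*, *RPL24A* and *RPL40B*. In the body of the subunit, 21 of 28 fell, with a median of -0.89, and *RPL13A*, *RPL14B*, *RPL15B*, *RPL16A*, *RPL16B*, *RPL20A* and *RPL36A* did not pass. Differences between these groups were not tested.

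The largest fall was that of *RPL18B* (YNL301C), a gene for a protein of the body. Its level was 298, 287 and 296 CPM in *pbp1Δ* and 56.5, 31.2 and 33 CPM in *pab1Δpbp1Δ*. All 3 *pab1Δpbp1Δ* libraries were far below the others, a 7.29-fold fall (log2 fold change -2.87, standard error 0.23, adjusted p = 0.000145). The fall of *RPL18B* was smaller, with a log2 fold change of -1.90 (adjusted p = 0.000296), when its unspliced entry was counted with the spliced one.

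*RPL9* encodes a protein near the factor-binding site of the subunit. *RPL9B* (YNL067W) had 306, 309.8 and 304 CPM in *pbp1Δ* and 104, 37.8 and 47.9 CPM in *pab1Δpbp1Δ*, a 4.86-fold fall (log2 fold change -2.28, standard error 0.35, adjusted p = 0.0013). The *pab1Δpbp1Δ* libraries were all lower, with replicate 1 above the other 2. *RPL9A* (YGL147C), which took the larger share of the pair in every library, fell by 1.85-fold (log2 fold change -0.89, adjusted p = 0.00331).

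*RPL8* encodes a protein of the body that enters pre-60S particles early in assembly. Here the A copy fell most, from 711, 698 and 695 CPM in *pbp1Δ* to 206, 142 and 99.2 CPM in *pab1Δpbp1Δ*. This 4.71-fold fall (log2 fold change -2.23, standard error 0.25, adjusted p = 0.000406) stood beside one of 2.26-fold for *RPL8B*, the most abundant member in WT (log2 fold change -1.18, adjusted p = 0.00118). As in *RPL9*, the copy with the lower WT level showed the larger fall.

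*RPL7B* (YPL198W) had 278, 291 and 294 CPM in *pbp1Δ* and 144, 42.5 and 53.1 CPM in *pab1Δpbp1Δ* (3.60-fold, log2 fold change -1.85, standard error 0.42, adjusted p = 0.00705). The groups did not overlap, but replicate 1 was nearer to *pbp1Δ* than the other libraries were. The adjusted p rose to between 0.0128 and 0.0313 when any library other than *pab1Δpbp1Δ* replicate 1 was left out. Its partner *RPL7A* (YGL076C), the other gene for this protein of the body, fell by 2.04-fold (adjusted p = 0.00192).

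*RPL22B* (YFL034C-A), the minor gene for a protein near the tunnel exit, had 65.6, 64.6 and 69.6 CPM in *pbp1Δ* and 41.8, 11.9 and 15.3 CPM in *pab1Δpbp1Δ*. The libraries did not overlap, yet replicate 1 had 3.07 times the mean of the other 2, and the difference did not pass (log2 fold change -1.53, standard error 0.42, adjusted p = 0.0159). Without that library the log2 fold change was -2.29 (adjusted p = 2.9e-07), and with the unspliced entry counted in it was -0.44 (adjusted p = 0.0469). *RPL1B* (YGL135W), a gene for the protein of the mobile L1 stalk, had 924, 854 and 775 CPM in *pbp1Δ* and 472, 257 and 282 CPM in *pab1Δpbp1Δ*. All *pab1Δpbp1Δ* values were lower (log2 fold change -1.34, standard error 0.23, adjusted p = 0.00235). *RPL21B* (YPL079W), whose protein sits at the central protuberance, and *RPL36B* (YPL249C-A), of the body, completed the 8 lowest log2 fold changes, with -1.27 and -1.24 (adjusted p = 0.000956 and 0.000986).

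At the other end, *RPL15B* was the member with a positive log2 fold change. It had 39.1, 39.9 and 40.2 CPM in *pbp1Δ* and 47.6, 40.1 and 35.8 CPM in *pab1Δpbp1Δ*, groups that overlapped (log2 fold change 0.05, standard error 0.12, adjusted p = 0.742), and its sign turned to -0.07 without *pab1Δpbp1Δ* replicate 1. Its partner *RPL15A* fell by 2.05-fold over the same libraries (adjusted p = 0.00212). *RPL24A* (YGL031C), a gene for a protein that bridges the subunits, had 1094, 1018 and 973 CPM in *pbp1Δ* and 1013, 582 and 586 CPM in *pab1Δpbp1Δ*. *RPL11B* (YGR085C), a gene for a protein of the 5S particle, had 1627, 1499 and 1499 CPM and then 1523, 842 and 811 CPM. In both, replicate 1 of *pab1Δpbp1Δ* lay within the *pbp1Δ* range and the other 2 lay well below it, and neither passed (log2 fold changes -0.50 and -0.54, adjusted p = 0.0923 and 0.0936). Without that library they were -0.82 and -0.90 (adjusted p = 5.17e-05 and 2.74e-05). *RPL16B* (YNL069C) was the remaining one of the 4 highest, with a log2 fold change of -0.59 (adjusted p = 0.0195).

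**Figure D2:**
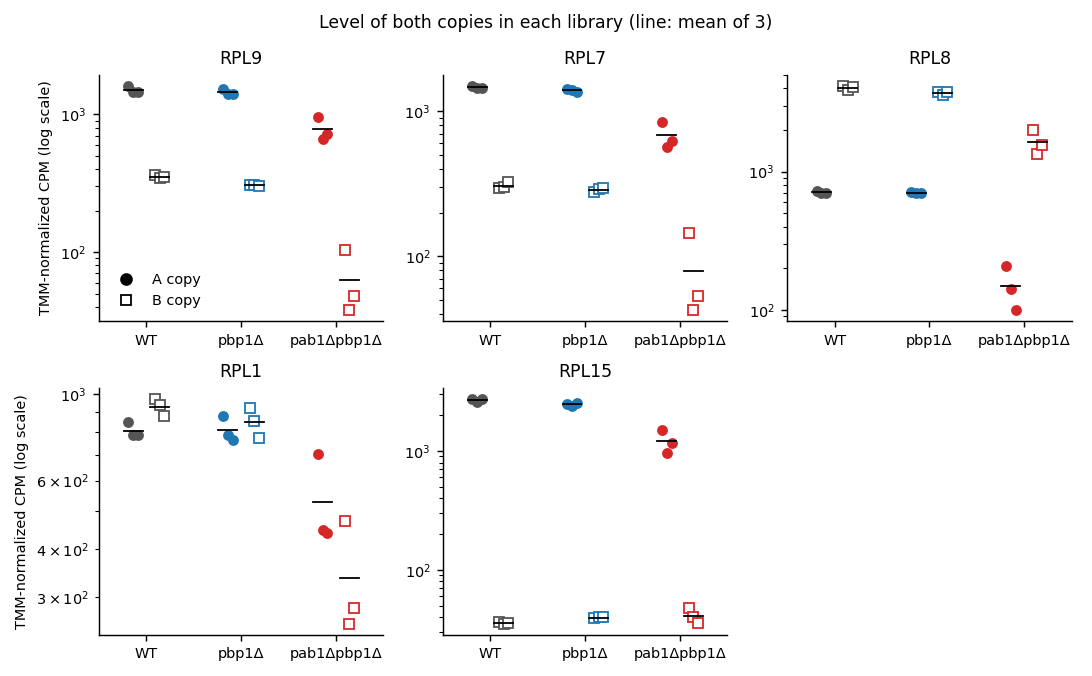
TMM-normalized CPM (log axis) of the A copy (filled circles) and the B copy (open squares) in each of the 3 libraries of WT, *pbp1Δ* and *pab1Δpbp1Δ* for the pairs *RPL9*, *RPL7*, *RPL8*, *RPL1* and *RPL15*. Lines are means of 3 libraries. WT and *pbp1Δ* points nearly coincide, the copies with the larger fall drop away from their partners, and *RPL15B* stays near 40 CPM while *RPL15A* drops.

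Added up over both copies, 25 of the 30 pair sums fell and the other 5 did not pass. The sums were tested in a separate fit. Its share of all entries called, with all libraries or with a library left out, is not given here. Log2 fold changes of the sums ran from -1.31 to -0.58 with a median of -0.92. A sum weighs its copies by their levels, so a narrower range than that of the copies follows from the adding itself. All 7 tunnel pairs, 12 of the 14 body pairs and 6 of the 9 pairs of the stalk and interface group passed. *RPL8* had the largest change, from 4465, 4272 and 4461 CPM to 2213, 1477 and 1666 CPM (log2 fold change -1.31, standard error 0.18, adjusted p = 0.000808). *RPL11* had the smallest, from 2768, 2555 and 2566 CPM to 2360.0, 1415 and 1518 CPM (log2 fold change -0.58, standard error 0.21, adjusted p = 0.0438). It did not pass, and neither did *RPL2*, *RPL13*, *RPL16* and *RPL24*. Both copies passed in 15 pairs, a single copy in 12 and no copy in 3. Without *pab1Δpbp1Δ* replicate 1 the count of sums was 30, while leaving out any other library gave between 2 (without *pbp1Δ* replicate 1) and 15 (without *pab1Δpbp1Δ* replicate 2), and 6 each without *pbp1Δ* replicates 2 and 3 and *pab1Δpbp1Δ* replicate 3.

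The balance between the copies also differed between the strains. In 18 of the 30 pairs the A share of all 3 *pab1Δpbp1Δ* libraries lay outside the range of *pbp1Δ*, higher in 11 and lower in 7. Among the 24 duplicated pairs of the small (40S) subunit this was the case in 58.3%, so the share of 60S pairs was close to that of the other subunit. The exact permutation p of log2(A/B) was 0.1 in each of the 18, the smallest that 3 against 3 libraries can give, so no single pair could pass 0.05. The median size of the shift was 0.20 on the log2 scale. In 9 of the 18 the shift was toward the copy that was larger in WT and in 9 toward the smaller one. By log2 fold change, the B copy was the lower one in 20 pairs and the A copy in 10, and the copies differed by over 0.5 in 9 pairs and by over 1 in 4.

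*RPL9A* took 86.8%, 85.7% and 86.0% of its pair in *pbp1Δ* and 92.5%, 95.8% and 95.2% in *pab1Δpbp1Δ*. *RPL7A* took 83.8%, 82.9% and 82.2% and then 85.6%, 93.1% and 92.3%. In both pairs a copy that was already the major one became more so.

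*RPL8* moved the same way with the letters exchanged. *RPL8A* made up 8.79%, 9.03% and 8.57% of the pair in *pbp1Δ* and 4.96%, 5.11% and 3.12% in *pab1Δpbp1Δ*. In *RPL15*, by contrast, the share of the minor copy was higher. *RPL15A* made up 98.7%, 98.6% and 98.7% in *pbp1Δ* and 97.3%, 96.5% and 97.4% in *pab1Δpbp1Δ*, and the ratio of *RPL15A* to *RPL15B* went from 72.1 to 33.6.

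*RPL1* was the pair whose order turned. *RPL1A* (YPL220W) made up 49.6%, 48.5% and 50.1% in WT, 51.7%, 50.9% and 52.6% in *pbp1Δ* and 62.6%, 66.2% and 63.7% in *pab1Δpbp1Δ*, and the 3 strains did not overlap. By the mean, the larger copy was thus *RPL1B* in WT, by 1.03-fold and not in replicate 3. The order had already turned in *pbp1Δ*, where *RPL1A* was larger by 1.07-fold, and in *pab1Δpbp1Δ* it was larger by 1.79-fold. Reads of this pair are hard to assign, because 71.6% of the 75-base windows of either *RPL1* coding sequence also occur in another coding sequence. In *RPL9* that share was 7.17%, in *RPL8* 2.44% and in *RPL15* 7.76%, whereas in *RPL7* it was 47.7%. Of the 30 pairs, 14 shared no such window and 4 shared over 50% (*RPL1*, *RPL4*, *RPL11* and *RPL35*), and 16 of the other 26 pairs were among the 18. Besides these pairs, *RPL24* and *RPL36* had A shares of 64.7% and 21.4% in *pbp1Δ* and 73.9% and 29.9% in *pab1Δpbp1Δ*, without overlap (named here after their values were seen).

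**Figure D3:**
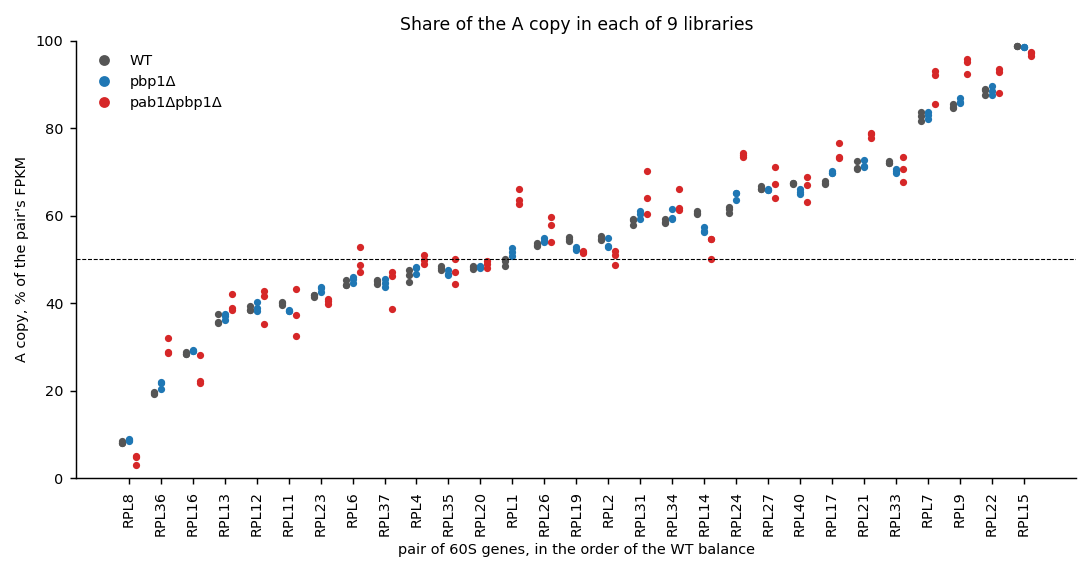
Share of the A copy in the FPKM of 29 pairs (vertical axis, percent), 1 point per library and strain, with pairs in the order of their WT balance and a dashed line at equal levels. The points of WT and *pbp1Δ* lie close together. Those of *pab1Δpbp1Δ* are shifted in many pairs, among them *RPL1*, *RPL24*, *RPL36*, *RPL9*, *RPL7* and *RPL21* (up) and *RPL16* and *RPL8* (down).

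The copies of a pair are near-identical in what they encode. By the RefSeq annotation of the R64 genome, coding sequences of the copies were between 78.9% (*RPL22*) and 99.4% (*RPL1*) identical, with a median of 93.5%, and in 9 pairs the proteins were identical. The lowest protein identity was 84.4%, in *RPL22*. Among the pairs described above, the copies of *RPL1* encode identical proteins, and those of *RPL8*, *RPL7*, *RPL9* and *RPL15* differ at 7, 5, 4 and 2 residues.

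The sequence upstream of the copies was searched as well. The motif ACCCNNACA, a core of the Rap1 site at many ribosomal protein promoters, was searched on both strands in the 500 bases before each start codon, with overlapping matches allowed. It was found at 29 of the 60 members (48.3%) and at 5.46% of all 6006 genes. Both copies held it in 8 pairs, a single copy in 13 and no copy in 9. Of the 13 pairs with a match at a single copy, *RPL8*, *RPL9*, *RPL7* and *RPL1* were named above for their shift of balance. Their windows are shown on the coding strand of the gene from 5′ to 3′ with the match in capitals:
*RPL8A*, chrVIII:36245-36274: tgaagaaaacACCCAAACAtatctaggcca
*RPL9A*, chrVII:228620-228649: tttccagaaaTGTTTGGGTttattttttaa
*RPL7A*, chrVII:366228-366257: tcatataaacACCCACACAtatctataaat
*RPL1B*, chrVII:254320-254349: acatttttgaACCCATACAtctttcaatat

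*RPL9A* carries the motif on the opposite strand to the gene, and *RPL7A*, *RPL8A* and *RPL1B* on the same strand, at 230 to 302 bases before the start codon. In *RPL8* and *RPL1* the copy with the match had the lower log2 fold change, and in *RPL9* and *RPL7* the copy without it did. The other pairs with a match at a single copy were not compared in this way. Of the 29 members with a match 21 fell, with a median log2 fold change of -0.91, and of the 31 without a match 21 fell, with a median of -0.86. No match says only that these letters are not in the window.

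Unspliced transcripts made up a larger part of the reads of most intron-containing members in *pab1Δpbp1Δ*. The transcript table lists a spliced and an unspliced entry for 46 of the 60 members, and the unspliced share is the unspliced FPKM over the sum of both. In 36 of the 46 this share was higher in all 3 *pab1Δpbp1Δ* libraries than in any *pbp1Δ* library, and in 0 it was lower in all 3. Among all 291 genes with both entries, 38.1% were higher without overlap, and among the 43 duplicated 40S genes with both entries 79.1% were, so that the share of the 60S members (78.3%) was close to that of the other subunit. The ratio of the mean share in *pab1Δpbp1Δ* to that in *pbp1Δ* had a median of 1.52 over the 46, from 0.91 for *RPL14B* to 3.62 for *RPL18B*, and the median share went from 1.93% to 2.78%. The unspliced entries themselves did not follow. Of the 46, 4 passed an adjusted p of 0.01 in edgeR (*RPL2B*, *RPL16A*, *RPL17B* and *RPL19B*), all of them lower, while 8.01% of all 287 unspliced entries tested were lower and 5.92% were higher. The share of lower entries among the members was thus close to that of all unspliced entries. The median log2 fold change of the 46 unspliced entries was -0.30, closer to 0 than the -0.86 of the spliced entries of the same genes. Spliced and unspliced entries share exon reads, so the split between them is an estimate that rests on reads in the intron and at its borders.

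*RPL18B* and *RPL22B* stood out by the size of the shift in percentage points. The unspliced share of *RPL18B* was 13.1%, 11.9% and 13.1% in *pbp1Δ* and 43.4%, 46.4% and 48.3% in *pab1Δpbp1Δ*. *RPL22B* had 31.8%, 29.2% and 27.8% in *pbp1Δ* and 46.6%, 72.9% and 66.9% in *pab1Δpbp1Δ*, and *RPL22A* had 1.38%, 1.21% and 1.2% and then 2.77%, 2.67% and 2.56%. In all 3 genes the *pbp1Δ* and *pab1Δpbp1Δ* libraries did not overlap, and *RPL22B* had a larger share than *RPL22A* in every library.

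The level of the unspliced entries did not pass the test in either gene. Unspliced *RPL18B* had 77.4, 66.8 and 77.3 CPM in *pbp1Δ* and 74.8, 46.7 and 53.1 CPM in *pab1Δpbp1Δ* (log2 fold change -0.34, adjusted p = 0.129), beside the spliced log2 fold change of -2.87. Unspliced *RPL22B* had 63.5, 55.2 and 55.5 CPM and then 75.7, 66.3 and 64.4 CPM (log2 fold change 0.24, adjusted p = 0.0885), so that the *pab1Δpbp1Δ* libraries were the higher ones without passing the test, beside the spliced -1.53.

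The other members with the largest shifts were *RPL24B*, from 4.59%, 4.66% and 5.59% to 7.53%, 13.6% and 12.2%, *RPL23A*, from 4.29%, 4.56% and 4.73% to 7.68%, 10.9% and 7.99%, *RPL7B*, from 3.81%, 3.40% and 3.53% to 5.96%, 8.90% and 6.77%, and *RPL36A*, from 4.62%, 5.27% and 4.66% to 6.58%, 11.1% and 7.63%. In each of these 4 all *pab1Δpbp1Δ* libraries were above all *pbp1Δ* libraries, and the exact permutation p was 0.1, the smallest possible here. *RPL24B* (YGR148C) has an unspliced entry in the files although the RefSeq annotation lists no intron within its coding sequence. Among members with a high unspliced share, *RPL19B* had overlapping libraries, with 19%, 16.5% and 16.3% in *pbp1Δ* and 15.8%, 16.6% and 21.2% in *pab1Δpbp1Δ* (named after its values were seen).

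**Figure D4:**
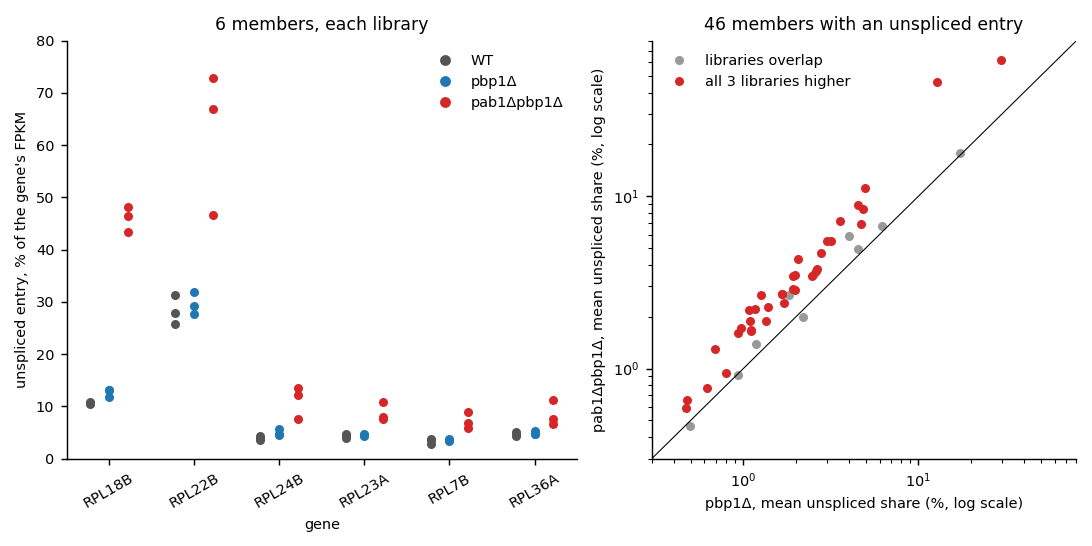
Left, unspliced FPKM as a percentage of the gene's FPKM in each library of the 3 strains for the 6 members with the largest shift. Right, mean unspliced share in *pab1Δpbp1Δ* against that in *pbp1Δ* for 46 members (log axes, line of equal values), with the 36 whose *pab1Δpbp1Δ* libraries were all higher in red. *RPL18B* lies farthest above the line (ratio of the mean shares 3.62). *RPL22B* (2.10) has the highest share in *pab1Δpbp1Δ* but lies about as far above the line as *RPL24B* (2.25) and *RPL22A* (2.11). *RPL14B*, *RPL16B* and *RPL17A* lie slightly below it.

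The introns of the 44 members annotated in RefSeq (46 introns, since *RPL7A* and *RPL7B* hold 2 each) had a median length of 408 bases, against 141 bases for all 281 introns of nuclear coding genes. The 5′ splice site GTATGT, the usual form in yeast, began 82.6% of the introns of the members and 73% of all introns. The branch point sequence TACTAAC was found, on the coding strand of the gene, in 93.5% and 82.6%. For the 2 genes of largest shift, and for the partner of *RPL22B*, the first bases of each intron are shown with 12 bases of the exon before it, from 5′ to 3′, with the first 6 bases of the intron in capitals:
*RPL18B*, intron at chrXIV:64019-64450, minus strand: ctttcctagctcGTATGTattgaaatctcc
*RPL22A*, intron at chrXII:263206-263594, plus strand: atggccccaaacGTATGAtactttaaaagg
*RPL22B*, intron at chrVI:64600-64920, minus strand: atggctccaaacGTACGTtaattttcgttc

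*RPL18B* has the usual 5′ splice site, whereas *RPL22A* has GTATGA and *RPL22B* has GTACGT. The branch point sequence is present in both shifted genes, shown with its flanks and with the 7 bases in capitals:
*RPL18B*: ctttatcccttTACTAACataacgtaaaaa
*RPL22B*: tcagttgggatTACTAACataaaactgtaa

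In *RPL18B* it lay 39 bases from the end of the intron and in *RPL22B* 15 bases. The other introns of the members without GTATGT were those of *RPL16A*, *RPL16B*, *RPL27A* and *RPL27B*, with the GTACGT of *RPL22B*, and those of *RPL20A* and *RPL40A*. Of these 6 genes, none was among the 6 with the largest shift of the unspliced share.

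Loss of Pbp1 alone left the 60S pairs close to their WT level. In *pbp1Δ* against WT, 0 of the 60 mRNAs passed an adjusted p of 0.01 in edgeR, while 6.24% of 6425 entries tested were lower and 5.34% were higher. At an unadjusted p under 0.05 there were 6 of the 60, while 2467 of all 6425 entries had such a p. DESeq2 called 2 lower (*RPL4B* and *RPL9B*), and its share over all entries is not given here. Log2 fold changes lay between -0.23 and 0.15 with a median of -0.06, and 48 of the 60 were negative. The 3 members with the smallest p were *RPL9B*, *RPL15B* and *RPL4B*. *RPL9B* had 361, 345 and 349.7 CPM in WT and 306, 309.8 and 304 CPM in *pbp1Δ* (log2 fold change -0.19, adjusted p = 0.0217). *RPL15B* had 36.5, 35.4 and 36 CPM and then 39.1, 39.9 and 40.2 CPM (log2 fold change 0.15, adjusted p = 0.036). *RPL4B* (YDR012W) had 2365, 2313 and 2421 CPM and then 2135, 2131 and 2077 CPM (log2 fold change -0.16, adjusted p = 0.0679). No WT library reached into the *pbp1Δ* range in any of these 3, yet the differences were small.

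Small shifts of balance accompanied the loss of Pbp1. In 17 of the 30 pairs the A share of *pbp1Δ* and WT did not overlap (10 higher and 7 lower), against 41.7% of the 40S pairs. The largest change of log2(A/B) was 0.25 in size, and no A share moved by over 5 percentage points. *RPL15* changed by -0.25 on this scale. *RPL14A* (YKL006W) made up 60.6%, 61.0% and 60.4% of its pair in WT and 56.4%, 57.4% and 56.5% in *pbp1Δ*, and *RPL24A* made up 60.5%, 61.5% and 61.9% and then 63.7%, 65.1% and 65.3%. Each of the 17 had the exact permutation p of 0.1 that is the smallest possible, and the spread between WT libraries may be technical alone. The unspliced share was higher without overlap in 2 of the 46 genes and lower in 2, near the 6.53% higher and 3.78% lower among all 291 genes with both entries.

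Against WT, which adds the effects of both deletions and shares its *pab1Δpbp1Δ* libraries with the comparison above, 47 of the 60 mRNAs were lower in *pab1Δpbp1Δ* and 0 were higher, among 21.6% lower and 21.8% higher of 6558 entries tested. The median log2 fold change was -0.95, with *RPL18B* again at the low end (-2.90) and *RPL15B* at the high end (0.18, not called). The count was 59 without *pab1Δpbp1Δ* replicate 1, and 24, 30, 24 and 25 without WT replicates 1, 2 and 3 and *pab1Δpbp1Δ* replicate 3. The share of all entries called without a library is not given here.

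Other ribosomal protein genes are given for comparison, from *pbp1Δ* to *pab1Δpbp1Δ*. Of the 10 single-copy 60S genes 8 fell, with a median log2 fold change of -0.93. Of the 6 genes of the other duplicated 60S pairs (*RPL41*, *RPL42* and *RPL43*) 3 fell, with a median of -0.78, and of the 5 genes of the acidic stalk (*RPP0* to *RPP2B*) 4 fell, with a median of -1.09. The duplicated 40S genes had 35 of 48 lower, with a median of -0.89. Of 12 genes for regulators of ribosomal protein genes, 4 passed and fell, among them *RAP1* (log2 fold change -0.97, adjusted p = 0.000532) and *HMO1* (-0.78, adjusted p = 0.00372), and *FHL1*, *IFH1* and *SFP1* had log2 fold changes of -0.24, -0.29 and -0.24 that did not pass (adjusted p = 0.0555, 0.0466 and 0.0552). The remaining 2 that fell were *UTP22*, whose product joins Ifh1 in a complex, and *TOD6*, a repressor gene. These lists were not tested against the 60 members.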

How the data were processed

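Processed RNA-Seq tables of 9 libraries were used, 3 each of WT, *pbp1Δ* and *pab1Δpbp1Δ*. A stranded mRNA kit was used with rRNA blocked, and single ends were read for 75 cycles. The expected counts deposited by the authors are RSEM 1.3.0 estimates per transcript from Bowtie 1.0.0 alignments to a transcriptome of spliced and unspliced forms built on R64, not normalized. The FPKM values were deposited by the authors beside these counts, from RSEM as well. Whether strand was used in counting is not given in the sources used here.

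Counts were rounded and tested across all entries in R 4.3.3 with edgeR 4.0.16 (TMM, filterByExpr with a minimum count of 10, robust quasi-likelihood test, Benjamini-Hochberg adjusted p under 0.01), on the 6 libraries of each pair of strains. Figures were drawn with matplotlib 3.10.9. Standard deviations are over 3 libraries. A share and unspliced share were computed from FPKM and compared by non-overlap and by an exact two-sided permutation test. Pair sums were refitted in place of the 2 copies. Alternatives were RLE and upper-quartile factors, DESeq2 1.42.0, other filters, all 9 libraries, replicate number as a block, counts per locus, a threshold of 0.05, and each library left out. The code was tested on simulated data.

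Members and lists were chosen with earlier results of these data known. Named by rule were the 8 lowest and 4 highest log2 fold changes, the 3 smallest p-values in *pbp1Δ* against WT, the pairs with the largest shifts of balance (6 and 3), the 3 most uneven and 3 most even pairs, 6 unspliced shares, and the largest and smallest pair sum. A member of the 60 and its pair's balance are not reported here, though they enter the counts.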

Additional observations from a re-analysis of the deposited data

How the results depend on the processing

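In *pab1Δpbp1Δ* against *pbp1Δ*, the count of 42 lower mRNAs was 31 with upper-quartile factors, 56 with DESeq2, 57 with all 9 libraries and 57 at an adjusted p under 0.05, and no alternative called a member higher. For none of the alternatives in this section is the share of all entries called given here. Upper-quartile factors also moved the median log2 fold change of all entries from 0.03 to 0.21, and the median of the 60 members relative to it was -0.94 with these factors and with TMM. Leaving out each library in turn gave counts of 13 to 59, 24 to 59 against WT, and 2 to 30 for the 25 lower pair sums. Without a library the test has fewer samples, and without *pab1Δpbp1Δ* replicate 1 the spread within that strain was smaller. In *pbp1Δ* against WT, the 0 lower mRNAs became 2 with DESeq2 and 1 at an adjusted p under 0.05, and the 0 higher mRNAs became 1 at that threshold. Over all entries, same-numbered libraries deviated together weakly at most. Correlations were 0.09, -0.08 and 0.02 in *pab1Δpbp1Δ* against *pbp1Δ*, and 0.21 for replicate 1 in *pbp1Δ* against WT. For the 60 mRNAs, replicate 1 had the highest summed share of counts in each strain (6.36%, 6.54% and 4.95%). Whether replicate numbers pair the samples is not given by the labels. With the replicate block, 55 mRNAs and 29 pair sums were lower in *pab1Δpbp1Δ* against *pbp1Δ*. It gave 56 lower mRNAs against WT and 2 in *pbp1Δ* against WT (*RPL9B* and *RPL24B*). The count of 18 shifted pairs lay between 16 and 24, that of 17 between 15 and 22, and that of 36 unspliced shares between 36 and 41, under all alternatives run. These ranges are partly fixed by the rule of non-overlap. Leaving out a library cannot undo a non-overlap, so it could only keep or raise a count. Keeping fewer pairs or genes could only keep or lower it. The lowest values, 16 and 15, come from keeping the 26 pairs that share under 50% of their 75-base windows, an alternative chosen after seeing the data. The ratio of the summed share of counts, 0.674, was 0.535 with TMM-normalized CPM and 0.607 to 0.726 without a library. The log2 fold change of *RPL15B*, 0.05, lay between -0.0697 and 0.14 when each library was left out, and was negative without *pab1Δpbp1Δ* replicate 1. The call of *RPL1B* was lost without *pbp1Δ* replicates 1 or 2 or *pab1Δpbp1Δ* replicate 3.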
